A study of Homo sapiens with 45 samples.

Results

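Molecular chaperones of the heat shock protein (HSP), DNAJ and CCT families were followed at the RNA level in 3 human neuroblastoma cell lines treated with palbociclib (PB), an inhibitor of the cyclin-dependent kinases CDK4 and CDK6. Members were the protein-coding genes whose symbols begin with DNAJA, DNAJB or DNAJC and a number, HSPA or HSPB and a number, HSP90, HSPH1, HSPD1, HSPE1, CCT2 to CCT8 or TCP1. Of the 29159 genes counted, 165 carried such a symbol and 84 of these were protein coding, 59 of the other 81 being processed pseudogenes. Of the 84, 80 are counted as chaperones: 14 of the HSP70 and HSP110 family, 3 of HSP90, 8 small heat shock proteins, mitochondrial HSPD1 and HSPE1, the 8 subunits of the CCT ring, the testis paralog CCT6B, and 4 DNAJA, 12 DNAJB and 28 DNAJC genes. The other 4 (TCP10L, TCP11, TCP11L1 and TCP11L2) match by letters alone, are not chaperones, and are left out of the counts of chaperones below. HSPB11 is listed with the small heat shock proteins by its name, but is annotated as IFT25, a subunit of transport in cilia. It was kept in the counts of chaperones.

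The lines were SK-N-BE(2)C (MYCN amplified), IMR-32 (MYCN and MEIS1 amplified) and SH-SY5Y (ALK mutant, no MYCN amplification), all of the adrenergic type. Each was sequenced as an untreated control, after 24 h in 1 μM PB, and after longer PB, which was 7 days (d) in SK-N-BE(2)C and 5 d in the others. In a run of 3 values below, SK-N-BE(2)C comes first, then IMR-32, then SH-SY5Y. Every group had 5 replicates from separate passages, which gave 45 libraries of 13459219 to 25441812 counts. Controls were taken at the early time, so longer treatment cannot be told apart from time in culture, and 7 d against 5 d cannot be told apart from the line. In bulk RNA of this kind, fewer cells of a type and less RNA per cell cannot be told apart.

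The replicate 5 libraries of IMR-32 stood apart from the other 4 of their groups. The SD of their log2 difference from those libraries was 0.77 in control, 0.75 at 24 h and 0.544 at 5 d, against at most 0.524 (SK-N-BE(2)C 7 d replicate 1) elsewhere. In IMR-32 control replicate 5 the mesenchymal-type markers SNAI2 and YAP1 were at 30 and 18.5 CPM, beside 0.133 to 1.1 and 0.634 to 1.53 CPM in the other controls, and the adrenergic marker TH was at 0.856 CPM, beside 13.7 to 25.2. At 24 h replicate 5 held 18.4, 4.66 and 1.53 CPM of these and at 5 d 3.12, 0.353 and 21.5 CPM. In SK-N-BE(2)C, replicates 3, 4 and 5 of the control and 24 h groups lay closer to each other (chi-square of 1.69 to 3.18 per degree of freedom over genes) than any other replicate pair (3.93 or more), so p-values in that line may rest on a spread that is partly technical. Of the check genes for PB action, E2F8, RRM2, MKI67 and CCNE2, all 4 fell in every line at 24 h, with summed levels of 606 to 1382 CPM (counts scaled to TMM-adjusted library size) over the control libraries and 17.1 to 114 at 24 h. In the longer samples the sum was 14.7 to 165 CPM in SH-SY5Y, 243 to 402 in IMR-32 and 21.9 to 262 in SK-N-BE(2)C. Of the adrenergic markers, HAND2 was at 405 to 1315 CPM and GATA3 at 197 to 813 CPM over all libraries, while DBH was at 377 CPM or more in SH-SY5Y and SK-N-BE(2)C but at 0.949 to 50.7 CPM in IMR-32. These moved with PB: at 24 h DBH rose in SH-SY5Y (from 1264 to 2092 CPM to 2554 to 4163 CPM) and SK-N-BE(2)C (from 419 to 596 CPM to 722 to 1276 CPM) and HAND2 and GATA3 rose in IMR-32 (0.52 each on the log2 scale), while DBH in IMR-32 fell from 10.1 to 40 CPM in control to 0.949 to 2.36 CPM at 5 d. The 3 Schwann cell markers in the tables summed to 1.22 to 14.3 CPM, the 7 mesenchymal-type markers to 128 to 564 and the 4 fibroblast markers to 25.3 to 617. The fibroblast sum was 159 to 215 CPM in SK-N-BE(2)C controls and 239 to 472 at 7 d, but 83.4 to 149 CPM in IMR-32 controls and 25.3 to 38.7 at 5 d, and the mesenchymal-type sum was lower after longer PB in each line, at 507 to 564 CPM in SH-SY5Y controls and 278 to 310 at 5 d, 202 to 268 and 128 to 176 in IMR-32, and 157 to 175 and 140 to 149 at 7 d in SK-N-BE(2)C. Within the SK-N-BE(2)C fibroblast sum, which rose, COL1A1 fell from 9.58 to 18.8 CPM in control to 3.63 to 8.45 CPM at 7 d. Within the SK-N-BE(2)C mesenchymal-type sum CD44 rose from 60.6 to 72.1 CPM in control to 88.6 to 98.7 CPM at 7 d. That mesenchymal-type sum was at 170 to 189 CPM at 24 h. The part of these markers in the results below was not tested.

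Chaperones bind unfolded or partly folded proteins and use cycles of ATP binding to let them fold. HSP70 proteins do so with DNAJ partners, which hand over clients and trigger ATP hydrolysis, and with HSP110 proteins, which reload the nucleotide. HSP90 acts later on kinases and receptors, the CCT ring folds actin and tubulin, and HSPD1 with its lid HSPE1 forms the folding chamber of mitochondria. HSPA5 (BiP), HSP90B1 (GRP94) and several DNAJ proteins do the same work in the endoplasmic reticulum (ER) and are known targets of the unfolded protein response, which acts through the ER stress response element (ERSE), while heat shock factors bind heat shock elements (HSE) before the cytosolic genes.

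Promoters are shown for 3 chaperones on which results below turn and whose upstream sequence carried a full copy of either element. The 250 bases before the RefSeq start (GRCh38.p14) were available for 72 of the 80 chaperones and were searched on both strands. A full ERSE (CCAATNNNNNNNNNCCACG) was found in 2 of the 72 (2.78%), HSPA5 and HSP90B1, and in 0.0806% of all 27305 promoters. A full HSE (GAANNTTCNNGAA or TTCNNGAANNTTC) was found in 3 of the 72 (4.17%), HSPA8, HSPA6 and DNAJB6, and in 0.439% of all promoters. An E2F element (TTTCCCGC or TTTGGCGC) was found in DNAJC5G alone, against 1.96% of all promoters. Capitals mark the matches, the sequences read 5′ to 3′ on the strand of the gene, and these matches describe letters and not bound sites. HSPA5 lies at chr9:125241344-125241593 (minus strand), HSP90B1 at chr12:103930160-103930409 (plus strand) and HSPA8 at chr11:123062137-123062386 (minus strand).
HSPA5: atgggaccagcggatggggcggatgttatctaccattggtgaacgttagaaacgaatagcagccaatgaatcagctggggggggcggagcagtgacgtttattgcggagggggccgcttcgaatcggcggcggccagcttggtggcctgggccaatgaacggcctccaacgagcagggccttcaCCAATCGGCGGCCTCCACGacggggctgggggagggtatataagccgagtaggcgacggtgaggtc
HSP90B1: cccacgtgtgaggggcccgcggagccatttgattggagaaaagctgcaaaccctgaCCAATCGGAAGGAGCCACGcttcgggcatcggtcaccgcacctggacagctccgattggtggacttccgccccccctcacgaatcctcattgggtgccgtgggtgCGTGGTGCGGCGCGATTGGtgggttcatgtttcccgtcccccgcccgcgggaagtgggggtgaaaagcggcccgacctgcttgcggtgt
HSPA8: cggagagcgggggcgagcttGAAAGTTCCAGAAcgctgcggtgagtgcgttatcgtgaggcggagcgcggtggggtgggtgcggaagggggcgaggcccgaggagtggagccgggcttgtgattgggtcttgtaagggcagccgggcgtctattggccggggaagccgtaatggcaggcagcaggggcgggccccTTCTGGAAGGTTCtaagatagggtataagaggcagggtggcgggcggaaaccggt

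Chaperones took 1.98% to 2.16% of all counts in SK-N-BE(2)C controls, 1.63% to 2.18% in IMR-32 controls and 1.61% to 1.77% in SH-SY5Y controls. After longer PB the share was 1.49% to 1.72%, 1.37% to 1.73% and 1.13% to 1.45%. In SH-SY5Y and SK-N-BE(2)C every longer-treated library lay below every control library, while the IMR-32 ranges overlapped. That overlap came from IMR-32 replicate 5 (2.18% in control and 1.73% at 5 d), since the other 4 replicates were at 1.63% to 1.83% in control and 1.37% to 1.52% at 5 d. HSP90AA1, HSP90AB1 and HSPA8 alone made up 32.4% to 45.4% of the chaperone counts of a library. Levels per kilobase (kb) of transcript, the scale on which genes can be compared, were highest in SK-N-BE(2)C controls for HSP90AB1 (mean 1317 CPM per kb), HSPA8 (1195) and HSP90AA1 (867), followed by HSPD1 (541) and CCT3 (498).

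A gene was called when edgeR's quasi-likelihood test over all genes of a line gave an adjusted p (Benjamini-Hochberg) under 0.05 and the log2 fold change went beyond 0.5. Of the 80 chaperones, 71 had enough counts to be tested in at least 1 line (68, 62 and 68 by line, 60 in all 3). The 9 that were tested nowhere (HSPA6, HSPB2, HSPB3, HSPB6, HSPB9, DNAJB7, DNAJB8, DNAJB13 and DNAJC5B) reached at most 0.842 CPM in any library.

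At 24 h few chaperones moved, at about the rate of all genes. In SK-N-BE(2)C 5 rose and 5 fell of the 68 tested (7.35% each way, against 10.9% and 10.6% of all 14055 genes tested). In IMR-32 7 rose and 6 fell of 62 (11.3% and 9.68%, against 7.87% and 10.5% of 14293 genes). In SH-SY5Y 7 rose and 5 fell of 68 (10.3% and 7.35%, against 10.5% and 11% of 14547 genes). Without replicate 5 of each group 6 rose and 5 fell in IMR-32.

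After longer PB more chaperones were lower than higher in 2 of the lines. In SK-N-BE(2)C at 7 d 11 rose and 23 fell (16.2% and 33.8%, against 24.5% and 22.3% of all genes), with a median log2 fold change of -0.33 beside 0.01 over all genes tested. In SH-SY5Y at 5 d 10 rose and 15 fell (14.7% and 22.1%, against 18.6% and 17.3%), with a median of -0.17 beside 0.01. In IMR-32 at 5 d 8 rose and 7 fell (12.9% and 11.3%, against 16.6% and 15.5%), with a median of -0.12 beside 0.00, and without replicate 5 these were 7 and 7. No chaperone was called in opposite directions in different lines, but how many of all genes were was not counted. The counts of families and gene lists after longer PB given below are to be read against the same shares of all genes, 24.5%, 16.6% and 18.6% higher and 22.3%, 15.5% and 17.3% lower.

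Between the treated times 5 rose and 10 fell from 24 h to 7 d in SK-N-BE(2)C (7.35% and 14.7%, against 17.5% and 14.4% of all genes). From 24 h to 5 d 3 rose and 4 fell in IMR-32 (4.84% and 6.45%, against 10.8% and 8.86%), and 3 rose and 7 fell in SH-SY5Y (4.41% and 10.3%, against 10.5% and 6.23%). Leaving out SK-N-BE(2)C 7 d replicate 1 took the SK-N-BE(2)C count from 15 to 23, and leaving out 24 h replicate 2, 5 d replicate 2 or 5 d replicate 4 took the IMR-32 count from 7 to 4.

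**Figure D1:**
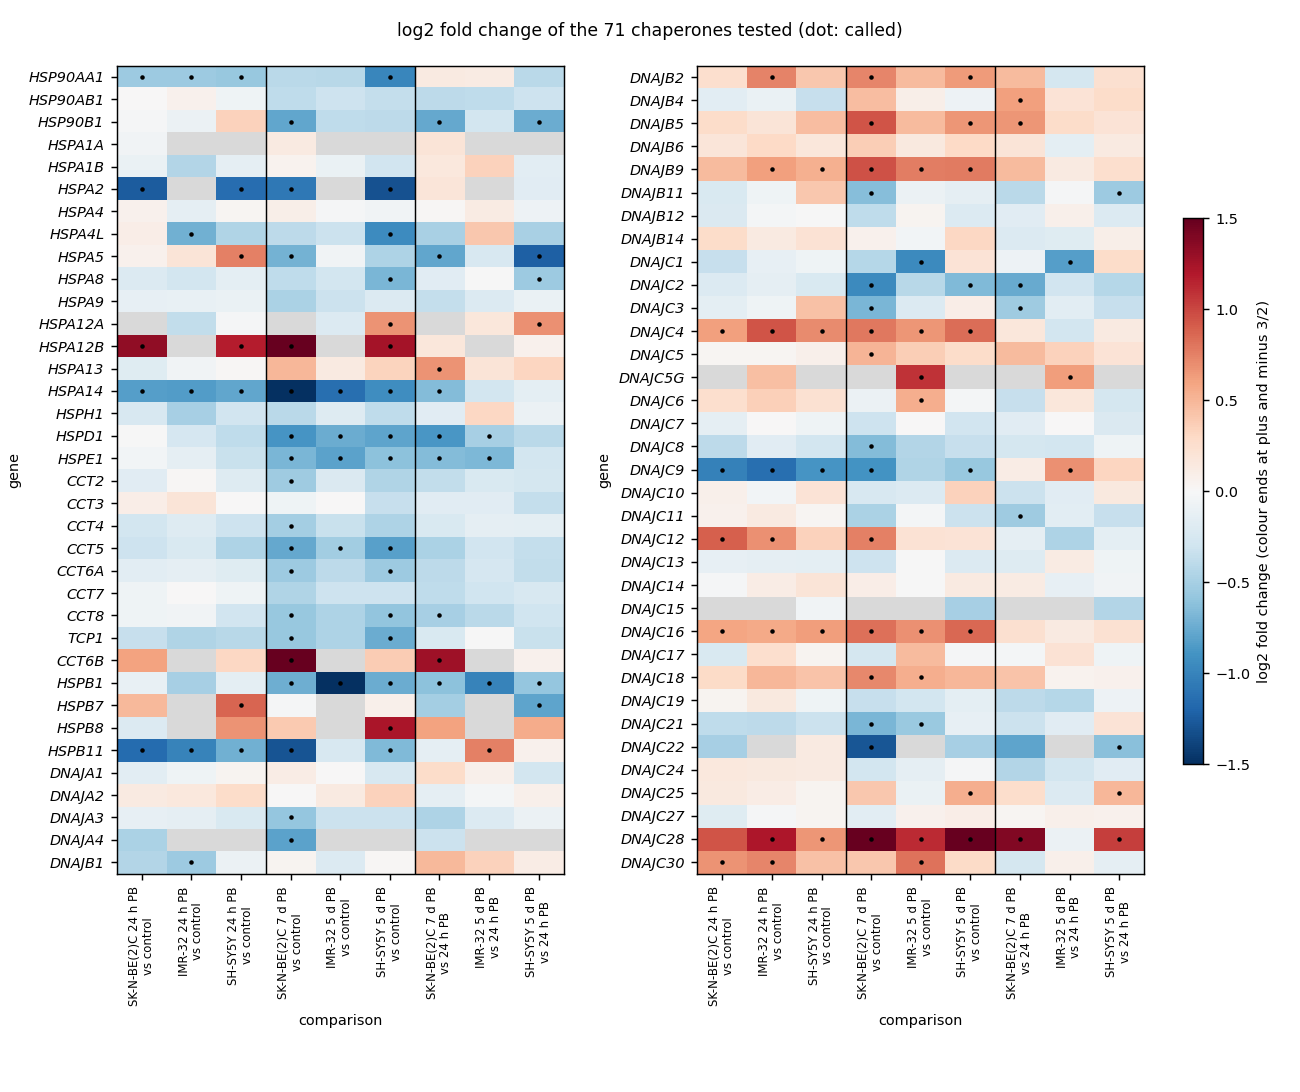
Log2 fold change (colour) of the 71 chaperones tested (rows) in the 9 comparisons (columns: 24 h PB against control, longer PB against control, longer PB against 24 h PB, each with 1 column a line); dots mark calls and grey marks genes not tested in a line. Dots gather in the middle columns, where 34, 15 and 25 chaperones were called. More of all genes were called there too, at 24.5%, 16.6% and 18.6% higher and 22.3%, 15.5% and 17.3% lower.

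HSP90 proteins finish the folding of kinases, receptors and transcription factors. HSP90AA1 and HSP90AB1 encode the 2 cytosolic forms, of which HSP90AA1 is the more stress-inducible. HSP90AA1 (chr14:102547079-102606036, minus strand, GRCh37, as for the gene positions below) fell at 24 h in all 3 lines, and shares 197 exon bases with WDR20 on the other strand. Its 5 control libraries held 2872, 3043, 2866, 2533 and 2673 CPM in SK-N-BE(2)C and its 24 h libraries 2067, 2350, 1905, 1808 and 1840 CPM. Those groups did not overlap. SH-SY5Y libraries held 2820, 2456, 2874, 2581 and 2618 CPM in control, 1961, 1642, 1873, 2001 and 1686 CPM at 24 h and 1015, 1195, 1507, 1368 and 1745 CPM at 5 d. IMR-32 libraries held 3213, 3548, 3752, 3216 and 5327 CPM in control and 2231, 2845, 2453, 2085 and 3153 CPM at 24 h. No 24 h library reached its control group in either line, and the highest IMR-32 control was replicate 5.

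The log2 fold changes of HSP90AA1 at 24 h were -0.54 ± 0.08 (SE, adjusted p = 2.3e-05, edgeR) in SK-N-BE(2)C, -0.54 ± 0.15 (adjusted p = 0.013, edgeR) in IMR-32 and -0.57 ± 0.11 (adjusted p = 0.00049, edgeR) in SH-SY5Y. The IMR-32 value was -0.47 without replicate 5 of each group, -0.38 without control replicate 5 alone, -0.50 without 24 h replicate 1 and -0.48 without 24 h replicate 4, each of which ended the call. After longer PB HSP90AA1 was called in SH-SY5Y (-0.98 ± 0.12), with values of -0.42 in IMR-32 (-0.51, and a call, without 5 d replicate 5) and -0.40 in SK-N-BE(2)C. HSP90AB1 was not called in any comparison, with log2 fold changes of 0.01, 0.07 and -0.06 at 24 h and -0.38, -0.31 and -0.36 after longer PB.

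Within single libraries the balance of both forms shifted. The ratio of HSP90AA1 to HSP90AB1, in CPM per kb, was 0.607 to 0.729 in SK-N-BE(2)C controls and 0.404 to 0.554 at 24 h, and 0.956 to 1.07 in SH-SY5Y controls and 0.66 to 0.762 at 24 h. In IMR-32 it was 0.849 to 1.25 and 0.564 to 0.736. At 24 h the ranges lay apart from the controls in every line. At the longer time they met again in IMR-32 (0.84 to 0.962) and SK-N-BE(2)C (0.56 to 0.711) but not in SH-SY5Y (0.584 to 0.749). These ratios were chosen after the values were seen and carry no test.

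**Figure D2:**
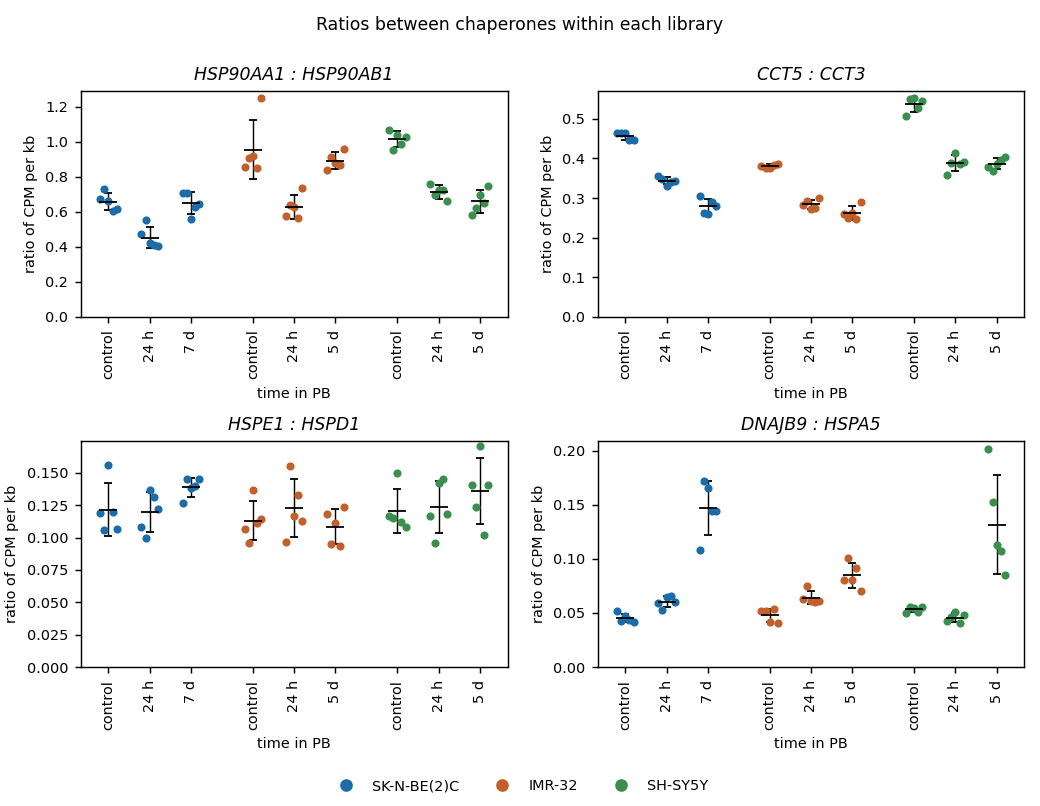
Ratio of CPM per kb of transcript (y axis) between pairs of chaperones in each library (points; bar and whiskers, mean and SD of 5) by time in PB (x axis) in each of the 3 lines. The HSP90AA1 to HSP90AB1 and CCT5 to CCT3 ratios at 24 h lie below every control of their line, the HSPE1 to HSPD1 ratio overlaps between groups of a line, and the mean DNAJB9 to HSPA5 ratio is highest at the longer time.

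Among the 14 HSP70 and HSP110 genes (12, 10 and 12 tested) 1, 0 and 2 rose after longer PB and 3, 1 and 4 fell, against 22.3%, 15.5% and 17.3% of all genes called lower. HSPA8, the constitutive form that also strips clathrin from vesicles, was called in SH-SY5Y alone, where it fell at 5 d (-0.69 ± 0.11, adjusted p = 2.0e-05, edgeR) from 1428 to 1845 CPM in control to 794 to 1240 CPM. Its longer-treatment values were -0.28 in IMR-32 and -0.38 in SK-N-BE(2)C. HSPA4 and HSPA9, the HSP110 relative and the mitochondrial HSP70, were not called in any comparison, HSPA9 being at -0.48, -0.32 and -0.20 after longer PB. HSPA9 in SK-N-BE(2)C was called lower at 7 d with no filter (-0.51), without control replicate 3 or 5 (-0.50 each) and without 7 d replicate 1 (-0.58). HSPH1, an HSP110 exchange factor induced by heat, was at -0.24, -0.50 and -0.29 at 24 h and was not called either, the IMR-32 value being at -0.51 to -0.54, and a call, with other scalings, no filter or DESeq2.

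HSPA14, an HSP70 relative that sits with DNAJC2 on the ribosome, fell at both times in every line. In SK-N-BE(2)C it held 29.5, 31.5, 26.8, 26.3 and 30 CPM in control, 21.4, 18.9, 13.8, 14.5 and 15.1 CPM at 24 h, and 15.9, 8.4, 7.01, 11.3 and 10.2 CPM at 7 d. Controls were above all treated libraries in that line. In IMR-32 means were 16.9 ± 4.67 CPM (SD, n = 5) in control, 9.17 ± 1.31 at 24 h and 7.62 ± 0.911 at 5 d, and in SH-SY5Y 15 ± 0.954, 8.83 ± 1.61 and 7.9 ± 1.14. Its log2 fold changes were -0.83 ± 0.17, -0.84 ± 0.17 and -0.78 ± 0.12 at 24 h and -1.49 ± 0.17, -1.13 ± 0.17 and -0.93 ± 0.12 after longer PB (adjusted p 0.0013 or less in each, edgeR). HSPA14 (chr10:14880305-14913740, plus strand) shares 36 exon bases with CDNF on the other strand.

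HSPA2, the testis- and neuron-enriched HSP70, was present in only 2 of the lines. Its levels in SK-N-BE(2)C were 26.7, 25.3, 23.7, 23.7 and 25.8 CPM in control and 10.1, 12.7, 10.4, 10.5 and 10.7 CPM at 24 h, and in SH-SY5Y 25.4, 20.1, 25.6, 26.7 and 19.9 CPM and 11.2, 10.3, 11.9, 12.2 and 8.71 CPM. HSPA2 fell by 58.0% (-1.25 ± 0.09) and 54.6% (-1.14 ± 0.12) at 24 h, and stayed low after longer PB (-1.07 ± 0.08 and -1.31 ± 0.12). In IMR-32 it reached at most 0.188 CPM and was not tested. HSPA4L, a testis-enriched HSP110 relative, fell in IMR-32 at 24 h (-0.72 ± 0.17) and in SH-SY5Y at 5 d (-0.94 ± 0.11), with 0.10 in SK-N-BE(2)C at 24 h. A joint fit of all 45 libraries gave an adjusted p of 0.016 for a difference between lines in HSPA4L at 24 h, with a range of 0.83.

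HSPA12A and HSPA12B are distant HSP70 relatives of brain and endothelium. HSPA12A was nearly absent from SK-N-BE(2)C (at most 0.297 CPM), at 46.1 to 115 CPM in IMR-32 and at 22.5 to 53.5 CPM in SH-SY5Y, where it rose at 5 d (0.67 ± 0.12). HSPA12B was low in both lines where it was tested and rose at 24 h from 0.168 to 0.299 CPM to 0.373 to 0.986 CPM in SK-N-BE(2)C, whereas SH-SY5Y went from 0.442 to 1.16 CPM to 1.08 to 2.6 CPM. Those rises were 1.33 ± 0.38 (adjusted p = 0.0093, edgeR) and 1.18 ± 0.28 (adjusted p = 0.0018, edgeR), and the SH-SY5Y groups overlapped. The classic inducible pair HSPA1A and HSPA1B, whose near-identical sequences leave their counts uncertain, was not called in any comparison. SK-N-BE(2)C libraries held 4.13 to 6.81 CPM of HSPA1A, which was listed at 0 in all 30 libraries of the other lines, while HSPA1B held 1.46 to 5 CPM everywhere.

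In the ER, HSPA5 and HSP90B1, the promoters of which are shown above with their ERSE, are the main HSP70 and HSP90 chaperones. HSPA5 encodes the ER HSP70 that pulls new proteins through the translocon and holds the stress sensors in check. In SH-SY5Y it rose at 24 h from 550, 625, 528, 526 and 484 CPM to 951, 1014, 806, 1055 and 837 CPM, and stood at 297, 363, 456, 377 and 495 CPM at 5 d. All 24 h libraries exceeded all controls, and all 5 d libraries lay below the 24 h libraries. In SK-N-BE(2)C it held 872, 1122, 933, 911 and 940 CPM in control, 1042, 1280, 961, 937 and 961 CPM at 24 h and 730, 554, 484, 609 and 592 CPM at 7 d. IMR-32 groups overlapped, with 403 to 487 CPM in control, 431 to 555 CPM at 24 h and 362 to 549 CPM at 5 d.

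HSPA5 was called higher at 24 h in SH-SY5Y (0.76 ± 0.12, adjusted p = 3.3e-05, edgeR), with 0.19 ± 0.11 in IMR-32 and 0.07 ± 0.10 in SK-N-BE(2)C. From 24 h to the longer time it fell by 57.0% in SH-SY5Y (-1.22 ± 0.12) and 41.8% in SK-N-BE(2)C (-0.78 ± 0.10), with -0.24 ± 0.11 in IMR-32. The 24 h responses differed between lines with an adjusted p of 0.0046 (edgeR interaction test), over a range of 0.72 that was under the limit of 1 set for a call. HSP90B1, the ER HSP90 that folds integrins and Toll-like receptors, fell from 24 h to the longer time in SH-SY5Y (-0.75 ± 0.09) and SK-N-BE(2)C (-0.77 ± 0.10), with -0.28 ± 0.13 in IMR-32. It was at 0.35 ± 0.09 in SH-SY5Y at 24 h, with every 24 h library (843 to 1077 CPM) above every control (685 to 778 CPM), which was short of a call.

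HSPA5 works with DNAJ partners of the ER lumen. DNAJB11, which delivers clients to HSPA5, was at 0.41 ± 0.07 in SH-SY5Y at 24 h and fell there from 97.3 to 120 CPM at 24 h to 68 to 79.4 CPM at 5 d (-0.54 ± 0.07). Its 24 h values were -0.07 ± 0.07 in IMR-32 and -0.23 ± 0.12 in SK-N-BE(2)C, where it fell at 7 d against control (-0.64 ± 0.12). DNAJC3, which also restrains the translation kinases, was at 0.44 ± 0.10 at 24 h in SH-SY5Y (0.50, and a call, without control replicate 2) and fell in SK-N-BE(2)C at 7 d (-0.68 ± 0.10). Interaction tests gave adjusted p of 0.001 for DNAJB11 and 0.022 for DNAJC3 at 24 h (edgeR), and these with HSPA5 and HSPA4L were the 4 chaperones whose 24 h responses differed between lines by that p. None of the 4 had a range over 1, so 0 of the 72 chaperones in that fit were called as differing at 24 h (16 at an unadjusted p under 0.05), against 2.82% of all 16282 genes in the joint fit.

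DNAJB9, the ER co-chaperone that brings HSPA5 to the stress sensor IRE1, rose after longer PB in all 3 lines. It held 27.7, 29.5, 26.8, 24.4 and 24 CPM in SK-N-BE(2)C controls, 38.2, 41.4, 38.5, 37.5 and 35.4 CPM at 24 h and 48.3, 58.5, 49.1, 54.1 and 52.4 CPM at 7 d. In SH-SY5Y it held 16.4 to 21.4, 24.6 to 28.8 and 24.8 to 36.7 CPM, and in IMR-32 12.1 to 13.2, 16.4 to 23.4 and 19.9 to 23.7 CPM. Every treated library was above every control of its line. Its log2 fold changes after longer PB were 0.96 ± 0.07, 0.77 ± 0.10 and 0.78 ± 0.10 (adjusted p 2.2e-05 or less in each, edgeR). At 24 h it was called in IMR-32 (0.62 ± 0.10) and SH-SY5Y (0.53 ± 0.11, which was 0.47 and no longer a call without SH-SY5Y 24 h replicate 2), with 0.48 ± 0.07 in SK-N-BE(2)C, a call with library size alone (0.51) and without control replicate 2 (0.52) or 24 h replicate 5 (0.50).

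The ratio of DNAJB9 to HSPA5, in CPM per kb, was 0.0415 to 0.0518 in SK-N-BE(2)C controls and 0.108 to 0.172 at 7 d. SH-SY5Y went from 0.0498 to 0.0556 to 0.0846 to 0.201 at 5 d, and IMR-32 from 0.0405 to 0.0533 to 0.0701 to 0.101. Of the other ER members, HSPA13, an ER-bound HSP70 relative, rose from 24 h to 7 d in SK-N-BE(2)C (0.67 ± 0.04), and DNAJC1, a translocon DNAJ, fell in IMR-32 after 5 d. DNAJC1 held 16.3 to 18.4 CPM in IMR-32 controls and 7.26 to 10.3 CPM at 5 d (-0.96 ± 0.13, adjusted p = 2.8e-05, edgeR), against 0.20 ± 0.06 in SH-SY5Y and -0.43 ± 0.09 in SK-N-BE(2)C, which was -0.51 and a call without 7 d replicate 1. Among the 8 ER members 1, 1 and 1 rose after longer PB and 4, 1 and 0 fell.

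**Figure D3:**
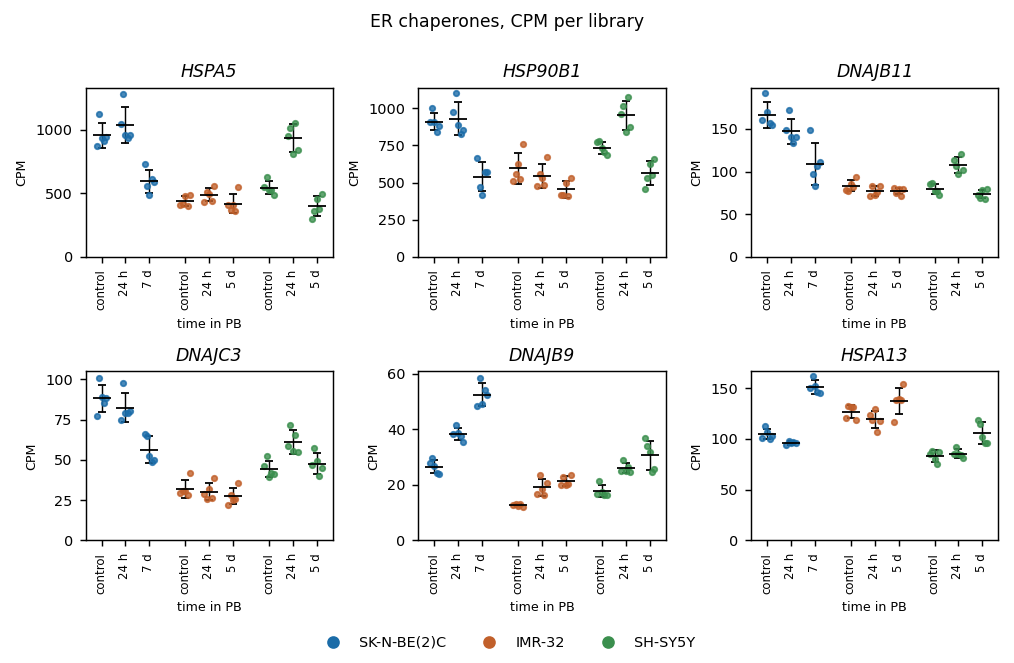
CPM (y axis, from 0) of 6 ER chaperones in each library (points; bar and whiskers, mean and SD of 5) by time in PB (x axis). HSPA5 peaks at 24 h in SH-SY5Y at 806 to 1055 CPM, while DNAJB9 is above its controls in all treated libraries of all 3 lines.

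HSPD1 and HSPE1, the mitochondrial folding chamber and its lid, fell together after longer PB in all 3 lines. HSPE1 lies within the annotated span of HSPD1 on the other strand of chromosome 2 (HSPD1 chr2:198351308-198381461, minus strand; HSPE1 chr2:198364864-198368173, plus strand) and they share 135 exon bases. HSPD1 held 1330, 1319, 1155, 1112 and 1158 CPM in SK-N-BE(2)C controls, 1378, 1440, 1144, 1121 and 1176 CPM at 24 h and 804, 530, 582, 748 and 703 CPM at 7 d. IMR-32 libraries held 919, 984, 1058, 917 and 1293 CPM in control and 579, 527, 652, 537 and 737 CPM at 5 d. SH-SY5Y libraries held 651, 590, 657, 647 and 644 CPM in control, 474, 456, 501, 556 and 499 CPM at 24 h and 260, 322, 417, 384 and 472 CPM at 5 d. For HSPD1 no longer-treated library reached a control of its line, and in SK-N-BE(2)C the 24 h libraries overlapped the controls, 2 of them being above the highest control. HSPE1 was apart from its controls after longer PB in IMR-32 and SK-N-BE(2)C. In SH-SY5Y its groups overlapped, 5 d replicate 3 being at 17.7 CPM and the lowest control at 16.8 CPM.

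HSPD1 fell after longer PB by 45.6% (-0.88 ± 0.10), 40.6% (-0.75 ± 0.13) and 42.2% (-0.79 ± 0.12), with adjusted p of 1.2e-06, 0.00019 and 1.0e-05 (edgeR). HSPE1 fell by 38.1% (-0.69 ± 0.11), 42.5% (-0.80 ± 0.20) and 34.5% (-0.61 ± 0.20), with adjusted p of 2.0e-05, 0.004 and 0.013 (edgeR), from lower counts of 30.8 to 44.7, 23.5 to 36.6 and 16.8 to 24.5 CPM in the controls. At 24 h neither was called, HSPD1 being at -0.01, -0.25 and -0.38 and HSPE1 at -0.04, -0.13 and -0.33. The ratio of HSPE1 to HSPD1 in CPM per kb spanned 0.0939 to 0.171 over all libraries and overlapped between the 3 groups of each line. Summed reads of the 11 HSPD1 pseudogenes came to 1.45% of the parent gene at most, and those of the 17 HSPE1 pseudogenes to 5.8%. How reads that fit both a parent gene and a pseudogene were counted is not given here. These shares therefore do not show how far the HSPD1 and HSPE1 counts were affected.

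Of the 9 mitochondrial members (8, 8 and 9 tested) 1, 2 and 1 rose after longer PB and 3, 2 and 2 fell, against 22.3%, 15.5% and 17.3% of all genes called lower. DNAJA3, a partner of HSPA9, fell at 7 d in SK-N-BE(2)C (-0.58 ± 0.07) and was at -0.32 in both IMR-32 and SH-SY5Y. DNAJC28 and DNAJC30 were the members of this list that rose. DNAJC28, a gene at a low level, rose after longer PB from 0.0488 to 0.55 CPM to 0.991 to 1.54 CPM in SK-N-BE(2)C, from 0.428 to 1.1 CPM to 1.67 ± 0.363 CPM (SD, n = 5) in IMR-32, and from 1.04 to 1.72 CPM to 3.08 to 5.17 CPM in SH-SY5Y. The folds were 2.33 ± 0.37, 1.12 ± 0.26 and 1.70 ± 0.20 on the log2 scale, with no overlap of groups. At 24 h DNAJC28 was called in IMR-32 (1.21 ± 0.26) and SH-SY5Y (0.66 ± 0.22, adjusted p = 0.017, edgeR; 0.51 and no call without 24 h replicate 2), while in SK-N-BE(2)C it was at 0.94 ± 0.41, a call with the replicate number as a block (0.97, adjusted p = 0.039, edgeR) and without control replicate 2 (1.56). DNAJC30, which works with the ATP synthase, rose at 24 h in IMR-32 (0.73 ± 0.13) and SK-N-BE(2)C (0.67 ± 0.11), with 0.44 ± 0.09 in SH-SY5Y (0.51, and a call, without control replicate 1).

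The CCT ring is a chamber of 8 different subunits that folds actin and tubulin. Of its 8 subunits 6, 1 and 4 fell after longer PB, against 22.3%, 15.5% and 17.3% of all genes, with medians of -0.54, -0.36 and -0.50, and none rose. The IMR-32 count was 3 without control replicate 1, control replicate 4 or 5 d replicate 5, where CCT8 (-0.50 to -0.51) and TCP1 (-0.51 to -0.53) were called as well, and 0 without control replicate 5, 5 d replicate 2 or 5 d replicate 4. At 24 h none was called by edgeR in any line, with 5, 2 and 6 at an unadjusted p under 0.05 and medians of -0.16, -0.10 and -0.24. Without IMR-32 control replicate 4 or 24 h replicate 5 TCP1 was called there (-0.51 and -0.55). CCT5, called lower in all 3 lines, held 772, 815, 736, 707 and 720 CPM in SK-N-BE(2)C controls and 539, 412, 399, 449 and 436 CPM at 7 d. It held 527, 519, 554, 520 and 648 CPM in IMR-32 controls and 379, 346, 382, 331 and 470 CPM at 5 d. In SH-SY5Y it held 491, 486, 522, 499 and 526 CPM in control and 242, 263, 308, 275 and 353 CPM at 5 d. The groups were apart in each line.

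The changes of CCT5 were -41.5% (-0.77 ± 0.08), -30.2% (-0.52 ± 0.11) and -43.3% (-0.82 ± 0.08), with adjusted p of 1.5e-07, 0.0012 and 1.6e-07 (edgeR). The IMR-32 value was -0.45 without control replicate 5, -0.49 without 5 d replicate 2 and -0.47 without 5 d replicate 4, each of which ended the call. TCP1, the first subunit, fell in SH-SY5Y (-0.75 ± 0.09) and SK-N-BE(2)C (-0.57 ± 0.04) and was at -0.46 ± 0.14 in IMR-32. CCT8 (-0.59 and -0.57) and CCT6A (-0.55 in each) fell in the same lines, and CCT2 (-0.53) and CCT4 (-0.51) fell in SK-N-BE(2)C. Those last were close to the limit: with library size alone as the scale CCT2 was at -0.49, CCT4 at -0.46 and CCT6A in SH-SY5Y at -0.48, and without SK-N-BE(2)C 7 d replicate 2 CCT2 was at -0.49 and CCT4 at -0.48. CCT4 was also at -0.49 with RLE size factors or without SK-N-BE(2)C control replicate 2, and CCT6A in SH-SY5Y at -0.49 without 5 d replicate 1. In the other direction, CCT2 (-0.51) and CCT4 (-0.52) were also called lower in SH-SY5Y without 5 d replicate 5, which made 6 subunits there.

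CCT3 and CCT7 were not called, CCT7 being at -0.45 ± 0.08, -0.31 ± 0.11 and -0.31 ± 0.08 after longer PB. Without SK-N-BE(2)C 7 d replicate 1 CCT7 was called lower there (-0.54). CCT3, the highest subunit per kb, held 951 to 1055 CPM in SK-N-BE(2)C controls and 920 to 1063 CPM at 7 d (-0.07 ± 0.05), 812 to 1005 and 806 to 972 CPM in IMR-32 (0.01 ± 0.09), and 530 to 580 and 384 to 524 CPM in SH-SY5Y (-0.35 ± 0.08). Control and treated ranges overlapped in IMR-32 and SK-N-BE(2)C and lay apart in SH-SY5Y. Each protein has the same number of copies in the ring. The ratio of CCT5 to CCT3 in CPM per kb was 0.446 to 0.464 in SK-N-BE(2)C controls, 0.331 to 0.356 at 24 h and 0.26 to 0.304 at 7 d. In IMR-32 it was 0.376 to 0.387, 0.273 to 0.299 and 0.247 to 0.29, and in SH-SY5Y 0.508 to 0.553, 0.358 to 0.414 and 0.368 to 0.404. Controls lay above all treated libraries in all 3 lines, a description with no test since the pair was chosen after the values were seen. CCT5 shares 1734 exon bases with an annotated long noncoding RNA on the other strand and CCT3 none, and whether reads were counted by strand is not given here.

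CCT6B, a testis-enriched paralog of CCT6A, rose in SK-N-BE(2)C from 0.299 to 1.05 CPM in control to 1.97 to 3.52 CPM at 7 d (1.87 ± 0.28, adjusted p = 1.7e-05, edgeR), was at 0.38 ± 0.45 in SH-SY5Y, and was too low for the fit of IMR-32.

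**Figure D4:**
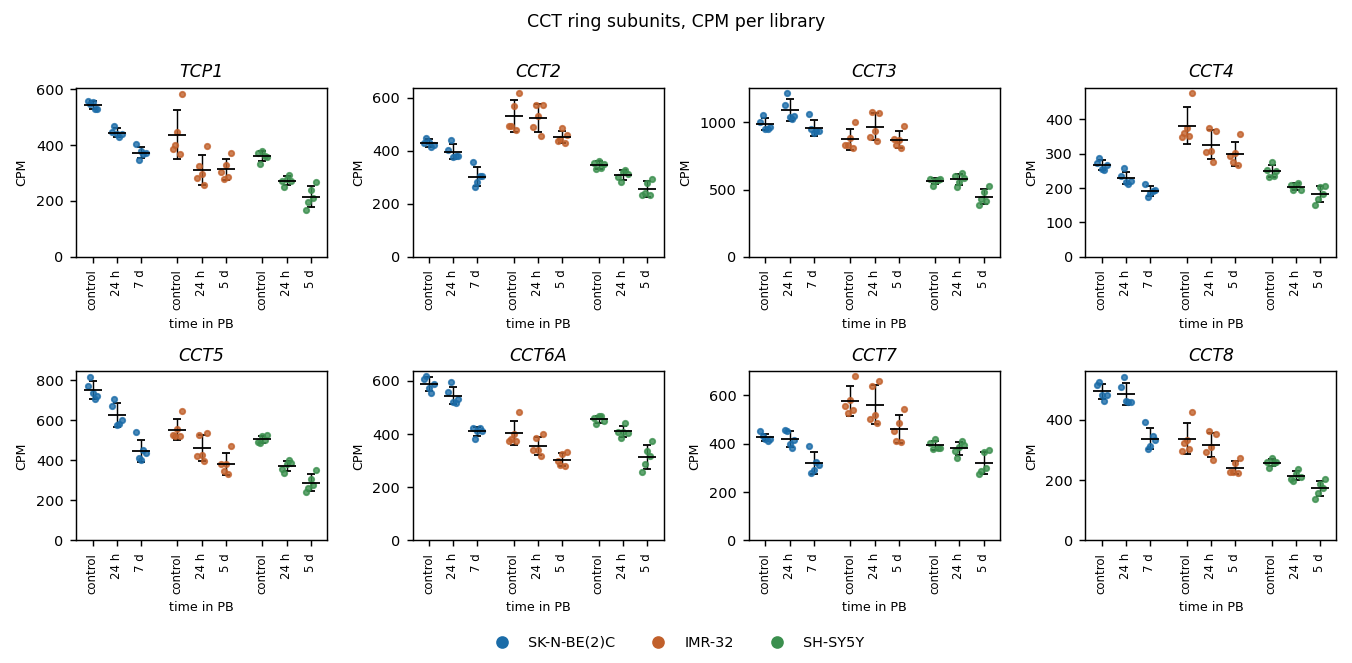
CPM (y axis, from 0) of the 8 CCT ring subunits in each library (points; bar and whiskers, mean and SD of 5) by time in PB (x axis). CCT5 is below its controls in all longer-treated libraries of all 3 lines, whereas CCT3 overlaps its controls in IMR-32 and SK-N-BE(2)C.

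Among the small heat shock proteins, which hold unfolded proteins without ATP, HSPB1 fell after longer PB in every line. HSPB1 (chr7:75931990-75933612, plus strand), the actin-associated HSP27, held 172, 140, 159, 150 and 174 CPM in SK-N-BE(2)C controls, 152, 134, 157, 159 and 159 CPM at 24 h and 113, 83, 79.6, 104 and 108 CPM at 7 d. SH-SY5Y libraries held 421, 407, 469, 382 and 335 CPM in control and 192, 214, 270, 279 and 263 CPM at 5 d. IMR-32 libraries held 185, 193, 179, 171 and 376 CPM in control, 121, 176, 109, 114 and 245 CPM at 24 h and 72.9, 76.4, 63.8, 61.3 and 113 CPM at 5 d. Controls exceeded the longer-treated libraries throughout, and replicate 5 was the highest of all 3 IMR-32 groups. The 24 h value in IMR-32 was -0.50 ± 0.27, and -0.73 and a call without 24 h replicate 5.

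The changes of HSPB1 were -39.7%, -64.5% and -39.9% (adjusted p 4.2e-06, 0.00049 and 6.8e-06, edgeR), and it also fell between 24 h and the longer time in each line. In SH-SY5Y that second fall (-0.58 ± 0.10) was -0.48 and no call without 5 d replicate 1. HSPB7, a heart and skeletal muscle form, rose in SH-SY5Y at 24 h from 1.08 to 3.64 CPM to 3.97 to 5.08 CPM (0.87 ± 0.24) and fell again by 5 d (-0.79 ± 0.24). It reached at most 0.0558 CPM in IMR-32. HSPB8, which works with the exchange factor BAG3, rose in SH-SY5Y at 5 d (1.22 ± 0.34), from 0.947 to 2.92 CPM to 2.71 to 6.53 CPM. With the replicate number as a block it was also called in SH-SY5Y at 24 h (0.66, adjusted p = 0.013, edgeR) and between the treated times (0.60, adjusted p = 0.015, edgeR).

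HSPB11 (annotated as IFT25, a subunit of the intraflagellar transport complex of cilia) fell at 24 h in all 3 lines. SK-N-BE(2)C held 6.3, 6.05, 5.83, 5.68 and 5.38 CPM in control and 3.52, 2.98, 2.71, 1.94 and 2.37 CPM at 24 h, against 28.6, 29, 36.4, 31.1 and 40.4 CPM and 15.5, 19, 15.8, 14.2 and 16.1 CPM in IMR-32. In SH-SY5Y it held 22.4 to 23.7 CPM and 12 to 15.9 CPM. The changes were -55.2%, -50% and -39.4% (adjusted p 9.3e-05, 3.3e-06 and 4.7e-06, edgeR), with the groups apart in each line. At the longer time HSPB11 stayed low in SH-SY5Y (-0.66 ± 0.09) and SK-N-BE(2)C (-1.29 ± 0.19), while in IMR-32 it rose from 24 h to 5 d (0.76 ± 0.11) to 25.9 to 29.4 CPM, which left -0.24 ± 0.11 against control.

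DNAJC9, a DNAJ protein that also chaperones histones, fell at 24 h in all 3 lines. Its controls held 102, 107, 122, 126 and 125 CPM in SK-N-BE(2)C, then 93.8, 87.9, 100, 91 and 126 CPM in IMR-32, then 109, 104, 110, 105 and 108 CPM in SH-SY5Y. At 24 h the libraries held 55.8, 62.5, 57, 59.6 and 63.7 CPM, then 40.1, 50, 46, 40.6 and 45.8 CPM, then 62.7, 52.9, 58.9, 64.3 and 55.6 CPM. All 24 h libraries were below all controls. DNAJC9 (chr10:74943120-75007013, minus strand) shares 1819 exon bases with FAM149B1 on the other strand.

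These changes were -50.4% (-1.01 ± 0.07), -54.3% (-1.13 ± 0.10) and -46% (-0.89 ± 0.08), with adjusted p of 1.1e-08, 4.3e-07 and 3.2e-08 (edgeR). After longer PB it was at -0.90 ± 0.07, -0.45 ± 0.10 and -0.57 ± 0.08, having risen from 24 h to 5 d in IMR-32 (0.68 ± 0.10, to 68.1 to 80.3 CPM), with 0.32 ± 0.08 in SH-SY5Y and 0.11 ± 0.07 in SK-N-BE(2)C. All 4 check genes for PB action rose from 24 h to 5 d in IMR-32 (median 3.48 on the log2 scale) and also in SH-SY5Y (median 1.99), where HSPB11 was at 0.06 ± 0.10 over that interval. Whether that bears on DNAJC9 and HSPB11 was not tested.

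Of the 8 nuclear and ribosome-bound members (DNAJC2, DNAJC7, DNAJC8, DNAJC9, DNAJC17, DNAJC21, DNAJC24 and HSPA14) after longer PB 5, 2 and 3 fell and none rose, with medians of -0.67, -0.43 and -0.32. DNAJC2, the ribosome partner of HSPA14, was among those that fell in SH-SY5Y and SK-N-BE(2)C, and DNAJC21, a ribosome assembly factor, in IMR-32 and SK-N-BE(2)C.

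**Figure D5:**
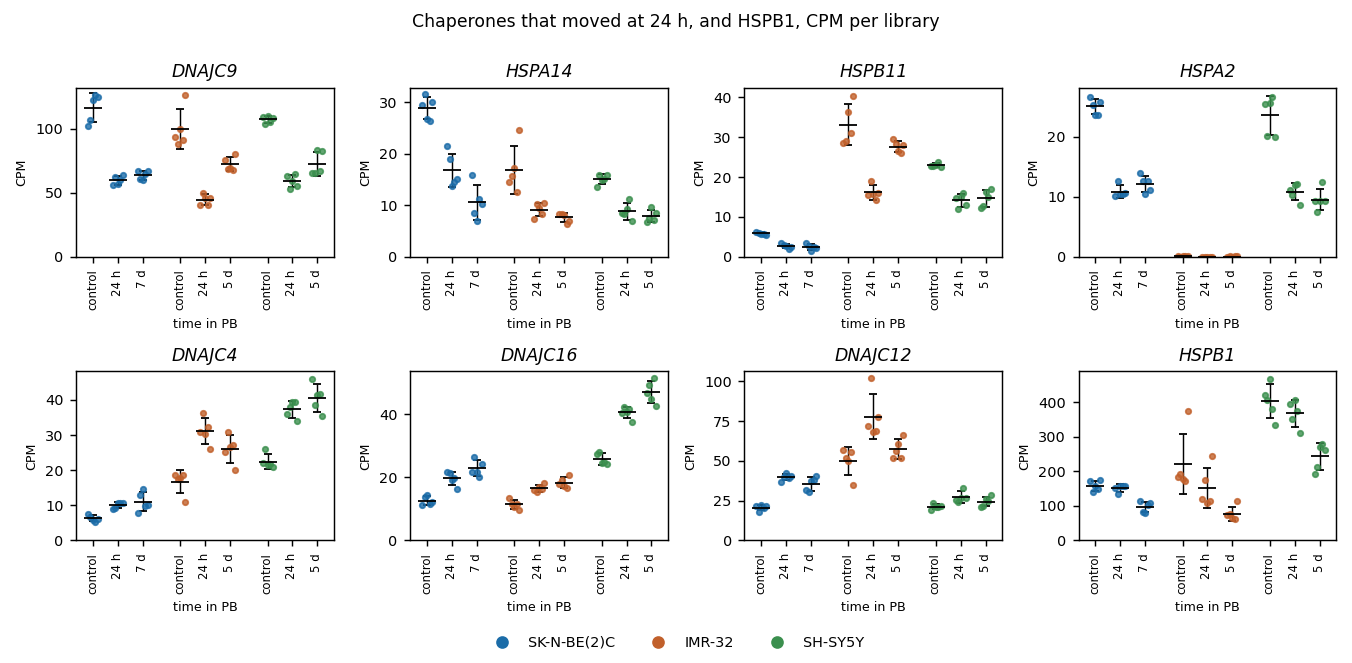
CPM (y axis, from 0) of 7 chaperones called at 24 h and of HSPB1 in each library (points; bar and whiskers, mean and SD of 5) by time in PB (x axis). DNAJC9, HSPA14 and HSPB11 drop below their controls at 24 h in all 3 lines, DNAJC4 and DNAJC16 lie above theirs, and HSPA2 is near 0 CPM in IMR-32.

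Of the 28 DNAJC genes (25, 25 and 26 tested) 6, 7 and 4 rose after longer PB, against 24.5%, 16.6% and 18.6% of all genes, and 6, 2 and 2 fell, against 22.3%, 15.5% and 17.3%. DNAJC4 and DNAJC16, little-studied members, rose in every line at both times. DNAJC16 held 11.2, 13.8, 14.4, 11.5 and 12.2 CPM in SK-N-BE(2)C controls and 21.7, 21.3, 19, 19.9 and 16.4 CPM at 24 h, and 27.5, 27.9, 24.6, 24.9 and 24.1 CPM and 40.4, 42.2, 40.8, 41.7 and 37.7 CPM in SH-SY5Y. In IMR-32 it held 9.79 to 13.6 CPM and 15.2 to 18.1 CPM. Groups were apart in every line. DNAJC16 rose at 24 h by 0.59 ± 0.10, 0.57 ± 0.10 and 0.63 ± 0.06 and after longer PB by 0.83 ± 0.10, 0.69 ± 0.10 and 0.86 ± 0.06. Its IMR-32 value at 24 h was 0.49 and no call without replicate 5 of each group.

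DNAJC4 rose at 24 h by 0.62 ± 0.15, 0.94 ± 0.14 and 0.71 ± 0.08, from means of 6.27 ± 0.858, 16.7 ± 3.31 and 22.5 ± 2.05 CPM (SD, n = 5) to 10 ± 0.868, 31.2 ± 3.68 and 37.4 ± 2.42 CPM. After longer PB it was higher than control by 0.79 ± 0.15, 0.66 ± 0.14 and 0.84 ± 0.08. DNAJC12, a DNAJ protein that binds the aromatic amino acid hydroxylases needed for catecholamine synthesis, rose at 24 h in IMR-32 and SK-N-BE(2)C. It held 21.7, 17.7, 22.3, 20.3 and 21.4 CPM in SK-N-BE(2)C controls and 36.9, 39.9, 42.6, 39.2 and 40.8 CPM at 24 h (0.90 ± 0.09, adjusted p = 5.5e-07, edgeR). IMR-32 libraries held 56.6, 51.8, 50.1, 55.7 and 35.1 CPM in control and 71.9, 102, 67.9, 69 and 77.8 CPM at 24 h (0.68 ± 0.13, adjusted p = 0.001, edgeR). In SH-SY5Y DNAJC12 was at 0.34 ± 0.10, with 19.1 to 23.4 CPM in control and 24.1 to 33.2 CPM at 24 h. It stayed higher at the longer time in SK-N-BE(2)C alone (0.76 ± 0.09), with 0.20 in SH-SY5Y and 0.22 in IMR-32, and the longer responses differed between lines with an adjusted p of 0.0038 (edgeR interaction test) over a range of 0.56.

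Of the 4 vesicle members 1 rose in SK-N-BE(2)C after longer PB, 1 rose in IMR-32 and 1 fell in SH-SY5Y. DNAJC5 (cysteine string protein), which guards the release machinery of synaptic vesicles, rose in SK-N-BE(2)C at 7 d from 150 to 173 CPM to 222 to 251 CPM (0.51 ± 0.05), just past the limit. Applying no filter (0.48) or leaving out control replicate 3, 4 or 5 or 7 d replicate 1 or 2 (0.47 to 0.50) ended the call. Its values were 0.28 ± 0.05 in SH-SY5Y and 0.37 ± 0.08 in IMR-32, and in all 3 lines every longer-treated library lay above every control. DNAJC6 (auxilin), which recruits HSPA8 to clathrin coats, was called in IMR-32 at 5 d (0.54 ± 0.14), where control replicate 5 held 77.7 CPM beside 137 to 149 in the others. Without replicate 5 of each group it was at 0.39 and without control replicate 5 alone at 0.40, neither of them a call. DNAJC5G, a testis relative of DNAJC5, was expressed in IMR-32 alone and rose there from 6.24 to 9.84 CPM to 11.5 to 23.3 CPM at 5 d (1.08 ± 0.20).

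Of the 12 DNAJB genes (9 tested in each line) 3, 1 and 3 rose after longer PB and 1, 0 and 0 fell, and of the 4 DNAJA genes 2, 0 and 0 fell. DNAJA1, a cytosolic partner of HSPA8, was not called in any comparison. DNAJB1, the partner in protein disaggregation, fell in IMR-32 at 24 h from 126 to 169 CPM to 86.9 to 106 CPM (-0.54 ± 0.10), was at -0.46 and no call without control replicate 5, and was at -0.09 in SH-SY5Y and -0.44 in SK-N-BE(2)C (-0.50 to -0.52, and a call, without control replicate 4 or 24 h replicate 1 or 2). DNAJB2, a neuronal DNAJ of the proteasome route, and DNAJB5 were higher after longer PB in SK-N-BE(2)C (0.73 ± 0.10 and 0.94 ± 0.10) and SH-SY5Y (0.64 ± 0.10 and 0.66 ± 0.06), both being outside the rule for named genes and chosen after their values were seen. DNAJA4, present in SK-N-BE(2)C alone, fell there at 7 d (-0.80 ± 0.20), and DNAJC15, present in SH-SY5Y alone, was called lower at 5 d with the replicate number as a block (-0.50). DNAJC18 rose in IMR-32 (0.55 ± 0.12) and SK-N-BE(2)C (0.72 ± 0.08) after longer PB, and the replicate number as a block added calls at 24 h in IMR-32 (0.51) and at 5 d in SH-SY5Y (0.50). These were also chosen after their values were seen. DNAJC22 fell in SK-N-BE(2)C at 7 d (-1.28 ± 0.37), where replicate 1 held 8.06 CPM beside 1.53 to 3.41 in the others. DNAJC22 in SH-SY5Y fell from 24 h to 5 d (-0.63 ± 0.22, adjusted p = 0.029, edgeR), and the adjusted p was 0.05 with library size alone, 0.055 with no filter and 0.055 to 0.086 when 24 h replicate 1, 2 or 3 or 5 d replicate 4 or 5 was left out. DNAJC25 rose over the same interval in SH-SY5Y (0.50 ± 0.11), at the edge of the limit, and was no longer called with the replicate number as a block (adjusted p = 0.0023, edgeR) or without 24 h replicate 1 or 3 or 5 d replicate 2 or 5 (0.46 to 0.50).

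Responses to longer PB differed between lines for 5 chaperones, against 20.4% of all genes in the joint fit. DNAJC1 had the smallest adjusted p (1.5e-08, edgeR interaction test) and a range of 1.21 between the log2 fold changes of the lines. HSPB11 (8.1e-05) had -1.31, -0.28 and -0.64 in that fit. HSPA12A (0.0034), CCT6B (0.022) and DNAJC28 (0.037) were the others, of which HSPA12A is near 0 CPM in SK-N-BE(2)C and CCT6B is under 1 CPM in IMR-32 and SH-SY5Y. Without replicate 3 of every group 1 of the 5 was called.

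Of the genes that match by letters alone, TCP11L2 rose in every line. It held 0.0977, 0.183, 0.155, 0.299 and 0.168 CPM in SK-N-BE(2)C controls and 1.98, 6.76, 6.03, 4.71 and 4.85 CPM at 7 d (4.74 ± 0.46), with 1.09 ± 0.30 in IMR-32 and 1.71 ± 0.20 in SH-SY5Y. Lines differed in this response (adjusted p = 2.2e-06, edgeR interaction test). TCP11L1 rose in IMR-32 at 5 d (0.72 ± 0.19), and TCP10L and TCP11 were too low to be tested.

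Genes that work with the chaperones were counted from fixed lists. Of 15 HSP90 partners, 7, 2 and 5 fell and 1, 0 and 0 rose after longer PB, against 22.3%, 15.5% and 17.3% of all genes called lower, with medians of -0.46, -0.26 and -0.33. PTGES3 (p23), which locks HSP90 on its client, fell in all 3 lines at 24 h (-0.52, -0.64 and -0.55) and after longer PB (-0.89, -0.73 and -0.86), and FKBP4, a steroid receptor partner, fell after longer PB (-0.93, -0.58 and -0.53). Among 14 exchange factors and HSP70 partners 3, 1 and 2 fell and 1, 0 and 2 rose, BAG2 falling in each line (-1.85, -0.88 and -0.82). Of 8 prefoldin and CCT partners 3, 0 and 3 fell, and of 5 tubulin folding cofactors 3, 1 and 0, with no rise in either list.

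In the list of 18 ER folding and unfolded protein response genes, all 18 were above 0 in SH-SY5Y at 24 h and 4 rose, against 10.5% of all genes called higher, with a median of 0.36 beside 0.04 over all genes, against 0 calls and medians of 0.03 and -0.04 in IMR-32 and SK-N-BE(2)C. From 24 h to 5 d 7 of the 18 fell in SH-SY5Y, against 6.23% of all genes called lower. After longer PB 3, 2 and 3 of the 18 rose and 4, 3 and 2 fell. SDF2L1, an ER protein found in complexes with HSPA5, fell after longer PB in all 3 lines (-1.62, -0.66 and -0.51), while DDIT3, a stress-induced transcription factor, rose (0.56, 0.75 and 0.53). Of 4 heat shock factor genes 1 rose in each line after longer PB, HSF4 (0.56, 0.94 and 0.56), and of 8 mitochondrial protease and stress genes 1, 2 and 0 rose and 1, 0 and 1 fell.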

How the data were processed

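RNA was sequenced as poly(A)-selected, directional (strand-marking) paired-end libraries from 45 cultures. The authors trimmed reads with Trim Galore (version 0.6.4 in the submitters' processing notes), aligned them to hg19 with STAR (2.6.1d) and deposited whole-number read counts per gene for each line, with CPM tables and DESeq2 (1.32.0) tables of their own fold changes and p-values, neither of which was used. Whether the counting used the strand is stated in none of the sources used here, and exons of 37 of the 84 members overlap exons of a gene on the opposite strand.

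The deposited counts of each line (15 libraries) were scaled by TMM, filtered with filterByExpr (minimum count 10, minimum total 15, proportion 0.7) and tested with edgeR 4.0.16 in R 4.3.3 (limma 3.58.1), by the robust quasi-likelihood test with Benjamini-Hochberg adjustment over all genes tested. A joint fit of all 45 libraries tested whether responses differed between lines, called at an adjusted p under 0.05 and a range of log2 fold changes over 1. Each value ± a log2 fold change is the SE. CPM were taken after TMM over all libraries, and 1 CPM was 18.5 counts at the median total of 18494528. The test was first run on simulated counts. Same-numbered libraries deviated together to some degree in all comparisons. Their lowest correlation was 0.0966 and 0.0482 in the 7 d comparisons of SK-N-BE(2)C and 0.109 to 0.249 in the others. A blocked fit (replicate number as an added term) is therefore given where it changes a call. The p-values measure the spread between replicate cultures of a line.

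The members and gene lists were chosen with earlier results of these data known. Genes were named if they belonged to a core list of chaperones, were called alike in all 3 lines, were among the 3 largest rises or falls of a comparison at a mean of 1 CPM or more in a group, or differed between lines. HSPA1A, HSPA1B, HSPA4, HSPA13, HSPB8, DNAJA3, DNAJA4, DNAJB2, DNAJB5, DNAJB11, DNAJC2, DNAJC15, DNAJC18 and DNAJC21 fall outside this rule and were chosen after their values were seen. Alternatives were RLE size factors, library size alone, no filter, the replicate block, DESeq2 1.42.0, no fold change limit and leaving out single libraries. Gene positions come from an annotation on GRCh37 and promoters from RefSeq (GRCh38.p14). Some genotype details of the lines and 1 marker are not reported here.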

Additional observations from a re-analysis of the deposited data

Results flagged for a closer look

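In 34 of 360 groups of 5 libraries of a named gene (TCP11L1 and TCP11L2 included) 1 library lay far from the other 4 by Dixon's criterion, where chance alone marks about 1 in 20. Of the 34, 11 were IMR-32 control replicate 5. In that library CCT4 was at 475 CPM (348 to 375 in the others), CCT5 at 648 (519 to 554), CCT6A at 483 (374 to 401), DNAJA1 at 636 (423 to 483), DNAJC3 at 42 (28.2 to 30.6), HSP90AA1 at 5327 (3213 to 3752) and HSPB1 at 376 (171 to 193). Below the others lay DNAJC4 at 10.9 CPM (17.4 to 18.7), DNAJC6 at 77.7 (137 to 149), HSPA4L at 42.2 (73.5 to 84.2) and TCP11L1 at 29.2 (40.6 to 44.6). In IMR-32 5 d replicate 5 DNAJB1 was at 154 CPM (108 to 120) and HSPA5 at 549 (362 to 409), and in IMR-32 control replicate 3 HSPA12A was at 92.8 CPM (76.6 to 79.8).

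In SK-N-BE(2)C 7 d replicate 1 CCT3 was at 1063 CPM (920 to 948) and DNAJC22 at 8.06 (1.53 to 3.41). In 7 d replicate 3 CCT6B was at 3.52 CPM (1.97 to 2.3) and DNAJC6 at 105 (96.2 to 97.2), and in 7 d replicate 2 HSPB7 was at 1.54 CPM (0.902 to 1.06). In 24 h replicate 2 of that line DNAJC3 was at 97.8 CPM (74.7 to 80.5), HSPA2 at 12.7 (10.1 to 10.7) and HSPH1 at 454 (328 to 360), and in control replicate 2 HSPA5 was at 1122 CPM (872 to 940).

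In SH-SY5Y control replicate 2 CCT3 was at 530 CPM (567 to 580), DNAJB9 at 21.4 (16.4 to 17.6), DNAJC28 at 1.72 (1.04 to 1.17), DNAJC4 at 26.1 (21 to 22) and HSPD1 at 590 (644 to 657). In control replicate 3 DNAJC25 was at 8.18 CPM (6.45 to 6.89) and HSPE1 at 24.5 (16.8 to 18.9), and in control replicate 1 HSPA4L was at 57.9 CPM (47.9 to 50.3). In treated SH-SY5Y libraries DNAJC5 was at 121 CPM in 24 h replicate 4 (114 to 116), HSPA9 at 305 in 24 h replicate 2 (324 to 331) and DNAJC6 at 110 in 5 d replicate 4 (90.6 to 94.5).

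Log2 fold changes after longer PB differed between lines by the interaction test of the joint edgeR fit for 5 chaperones and for TCP11L2. Their ranges were 3.69 for TCP11L2 (adjusted p = 2.2e-06, edgeR), 1.66 for HSPA12A (0.0034), 1.50 for CCT6B (0.022), 1.24 for DNAJC28 (0.037), 1.21 for DNAJC1 (1.5e-08) and 1.02 for HSPB11 (8.1e-05).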

How the results depend on the processing

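With RLE size factors, library size alone, no filter, DESeq2 or the replicate block, each count of chaperones called stayed within 1.5 times its main value. Under no alternative run did a named gene gain or lose a call together with a change of sign. Changes of sign among values not called in either run were not counted. Without a fold change limit 32, 55 and 47 were called in SK-N-BE(2)C (24 h, 7 d and 7 d against 24 h), 36 and 18 in IMR-32 (5 d and 5 d against 24 h), 38, 53 and 37 in SH-SY5Y, and 4 (24 h) and 33 (longer PB) as differing between lines. This is by construction, since more genes can pass. With the replicate number as a block the counts were 13, 27 and 10 for SH-SY5Y, 14, 15 and 7 for IMR-32, 11, 34 and 17 for SK-N-BE(2)C, while 6 chaperones differed between lines after longer PB. It changed no call other than those given beside the results, apart from DNAJC22 (-0.94) and HSPA4L (-0.50) from 24 h to 7 d in SK-N-BE(2)C. Both became calls there, and same-numbered libraries of those groups correlated at 0.0482 to 0.478. Leaving out 1 library gave 11 to 14, 24 to 30 and 7 to 11 calls for SH-SY5Y, 11 to 17, 12 to 19 and 4 to 8 for IMR-32, and 10 to 13, 31 to 38 and 15 to 23 for SK-N-BE(2)C. The 23 came without SK-N-BE(2)C 7 d replicate 1, and the 4 without IMR-32 24 h replicate 2, 5 d replicate 2 or 5 d replicate 4. Leaving out 1 replicate number from every group gave 1 to 5 chaperones that differed between lines after longer PB (1 without replicate 3) and 0 at 24 h. The cause was not tested. Without IMR-32 replicate 5, a setting chosen after seeing the data, IMR-32 had 11, 14 and 7 calls, and HSPD1 from 24 h to 5 d (-0.50) was no longer called. That HSPD1 call also ended with RLE size factors (-0.49), library size alone (-0.45), DESeq2 (-0.49) and without 24 h replicate 2 or 5 or 5 d replicate 1, 2 or 4 (-0.42 to -0.49). Genes near 1 CPM rest on about 18.5 counts a library, which limits DNAJC28, HSPA12B and CCT6B.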
